A study of Mus musculus with 19 samples.

Results

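The genes described here are the Hox genes of the mouse, which encode homeodomain transcription factors. They were taken by symbol from the deposited bulk count table and from the gene list of the single-cell matrix. Of 39 Hox symbols in the bulk table, 38 were analysed among 24062 genes, 10 of the HoxA cluster on chromosome 6, 10 of HoxB on chromosome 11, 9 of HoxC on chromosome 15 and 9 of HoxD on chromosome 2; the other one is not analysed here. All 38 were found in both the bulk table and the single-cell gene list.

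The study sequenced RNA of mouse colon epithelium during the loss and return of its stem cells, and of the embryonic hindgut epithelium from which colon forms. Adult bulk libraries were made from sorted cells of mice of mixed C57BL/6 and 129/Sv background. There were 2 libraries of Ascl2 knockout colon stem cells, which carry floxed Ascl2 alleles and an Lgr5 allele with EGFP and Cre, so that Cre is driven by Lgr5. There were 2 libraries of regenerating colon cells and 3 libraries of wild-type colon stem cells, both from animals with an mCherry reporter in Ascl2 and an Lgr5 allele that carries the diphtheria toxin receptor and EGFP. Per the labels' protocols, tamoxifen was injected to delete Ascl2 (2 mg, then 1 mg on the last of 3 days), and diphtheria toxin (50 µg/kg, 4 injections) to kill stem cells; the same protocol text stands on every sample and does not say which animals received which agent. Genotype, reporter and sorted population differ together between knockout and other adult libraries and cannot be told apart. Any difference in the injected agents cannot be told apart from them either. The hindgut libraries hold Epcam-positive cells of wild-type CD1 embryos, 2 biological replicates for each of 4 ages (embryonic days 11, 12, 14 and 16, written E11 to E16). A single-cell library holds mCherry-positive, GFP-negative regenerating colon cells on day 8. Animal ages and whether libraries come from separate animals are not given for the adult samples, so p-values measure the spread between these libraries.

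Hox genes sit in 4 clusters, and their order along the chromosome follows their order of activation and the position along the body axis where they act. Low paralogue numbers lie at the 3' end of a cluster and are used early and anteriorly, while high numbers lie at the 5' end and are used late and posteriorly. HOX proteins bind DNA together with PBX and MEIS proteins, CDX factors and retinoic acid act upstream of them, and Polycomb proteins keep unused parts of the clusters silent. The hindgut is among the most posterior gut segments, and loss of Hoxa13 and Hoxd13 in mice disturbs its terminal part.

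Assigned counts ranged from 13826958 to 30583908 per bulk library. Levels are CPM, in which the counts of each library are scaled to one common total with TMM factors, and a gene was called at an adjusted p below 0.05 in edgeR's quasi-likelihood test across all genes. In the hindgut 35 of the 38 Hox genes passed the filter on low counts and were tested, and in adult cells 25 passed. The filter left out 13 genes in adult cells, all 9 of HoxC among them, and Hoxc11, Hoxc12 and Hoxc13 in the hindgut. The knocked-out gene Ascl2 was at 53.8 and 59.2 CPM in the knockout, 85.7 and 56.95 in the regenerating and 109.7, 151 and 104 in the wild-type libraries; whole-gene counts do not show which part of the gene the reads cover. Epcam, the marker used for the hindgut sort, was between 910 and 1428 CPM in all 8 hindgut libraries.

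To place the results on the genome, the 250 bases before the start of 5 genes are shown, taken from RefSeq on GRCm38.p6 and printed 5' to 3' on the strand of the gene. Hoxd1, Hoxd3 and Hoxd8 are given as members of 1 cluster that were lower at E16 than at E11, though Hoxd3 rose again from E14 to E16. Hoxa5 and Hoxa7 are given as the pair that was higher in Ascl2 knockout cells than in both other adult groups. Capitals mark 2 motifs searched on both strands, TTTATG, the core of a CDX-type site, and CAGCTG, an E-box of the kind bound by ASCL-family factors. Promoters were matched for 22 of the 38 genes.
Hoxd1 (chr2:74762730-74762979, plus strand): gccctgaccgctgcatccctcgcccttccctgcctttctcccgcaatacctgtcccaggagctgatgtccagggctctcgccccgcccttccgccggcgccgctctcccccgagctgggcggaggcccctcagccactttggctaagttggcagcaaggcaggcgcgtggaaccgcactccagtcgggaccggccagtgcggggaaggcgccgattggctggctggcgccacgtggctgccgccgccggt
Hoxd3 (chr2:74711743-74711992, plus strand): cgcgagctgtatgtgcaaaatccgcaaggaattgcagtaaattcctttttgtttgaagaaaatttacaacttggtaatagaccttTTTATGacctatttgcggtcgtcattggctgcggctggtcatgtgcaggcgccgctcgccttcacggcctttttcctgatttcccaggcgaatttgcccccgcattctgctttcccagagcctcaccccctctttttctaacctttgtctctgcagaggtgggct
Hoxd8 (chr2:74704365-74704614, plus strand): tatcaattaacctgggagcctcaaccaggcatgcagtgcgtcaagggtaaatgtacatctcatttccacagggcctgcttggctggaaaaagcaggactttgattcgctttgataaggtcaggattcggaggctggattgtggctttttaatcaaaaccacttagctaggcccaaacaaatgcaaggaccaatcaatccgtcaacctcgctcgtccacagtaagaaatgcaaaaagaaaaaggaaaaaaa
Hoxa5 (chr6:52204588-52204837, minus strand): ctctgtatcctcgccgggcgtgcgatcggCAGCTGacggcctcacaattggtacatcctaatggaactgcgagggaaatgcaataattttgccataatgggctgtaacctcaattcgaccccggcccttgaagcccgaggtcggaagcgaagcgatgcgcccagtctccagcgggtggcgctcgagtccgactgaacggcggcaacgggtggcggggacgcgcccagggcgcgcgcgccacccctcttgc
Hoxa7 (chr6:52218574-52218823, minus strand): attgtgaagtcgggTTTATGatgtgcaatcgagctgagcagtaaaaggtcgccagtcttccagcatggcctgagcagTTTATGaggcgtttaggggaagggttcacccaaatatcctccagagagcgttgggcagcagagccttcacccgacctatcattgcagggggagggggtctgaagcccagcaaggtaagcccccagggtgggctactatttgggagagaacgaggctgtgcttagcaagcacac
The Hoxa7 window holds TTTATG at 236 and 173 bases before the start, and the Hoxd3 window holds it at 165 bases. The Hoxa5 window holds CAGCTG at 221 bases, and neither motif is written in the Hoxd1 and Hoxd8 windows. TTTATG occurred in 5 of 24 Hox windows (20.8%) and in 10.8% of 32851 windows of all genes, and CAGCTG in 3 of 24 (12.5%) and in 13% of all. The 2 motifs do not overlap each other in these windows, and a match is a description of letters.

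The clusters also hold microRNA genes of 2 seed families that target Hox transcripts. They are shown, with both families for comparison of the seeds, because the hairpin row of Mir196b, which lies between Hoxa9 and Hoxa10, changed in knockout cells. Mature sequences from RefSeq (GRCm38.p6) carry the seed, bases 2 to 8, in capitals.
miR-10a-5p (chr11:96317186-96317208, plus strand, HoxB): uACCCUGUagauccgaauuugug
miR-10b-5p (chr2:74726074-74726096, plus strand, HoxD): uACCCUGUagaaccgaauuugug
miR-196a-5p (chr11:96265187-96265208, plus strand, HoxB; a second copy at chr15:102973365-102973386 in HoxC): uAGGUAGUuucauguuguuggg
miR-196b-5p (chr6:52230129-52230150, minus strand, HoxA): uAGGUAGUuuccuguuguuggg
The miR-10 pair shares the seed ACCCUGU and the miR-196 pair the seed AGGUAGU. The bulk table counts RNA of the library over the hairpin rows, not the mature microRNA.

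**Figure D1:**
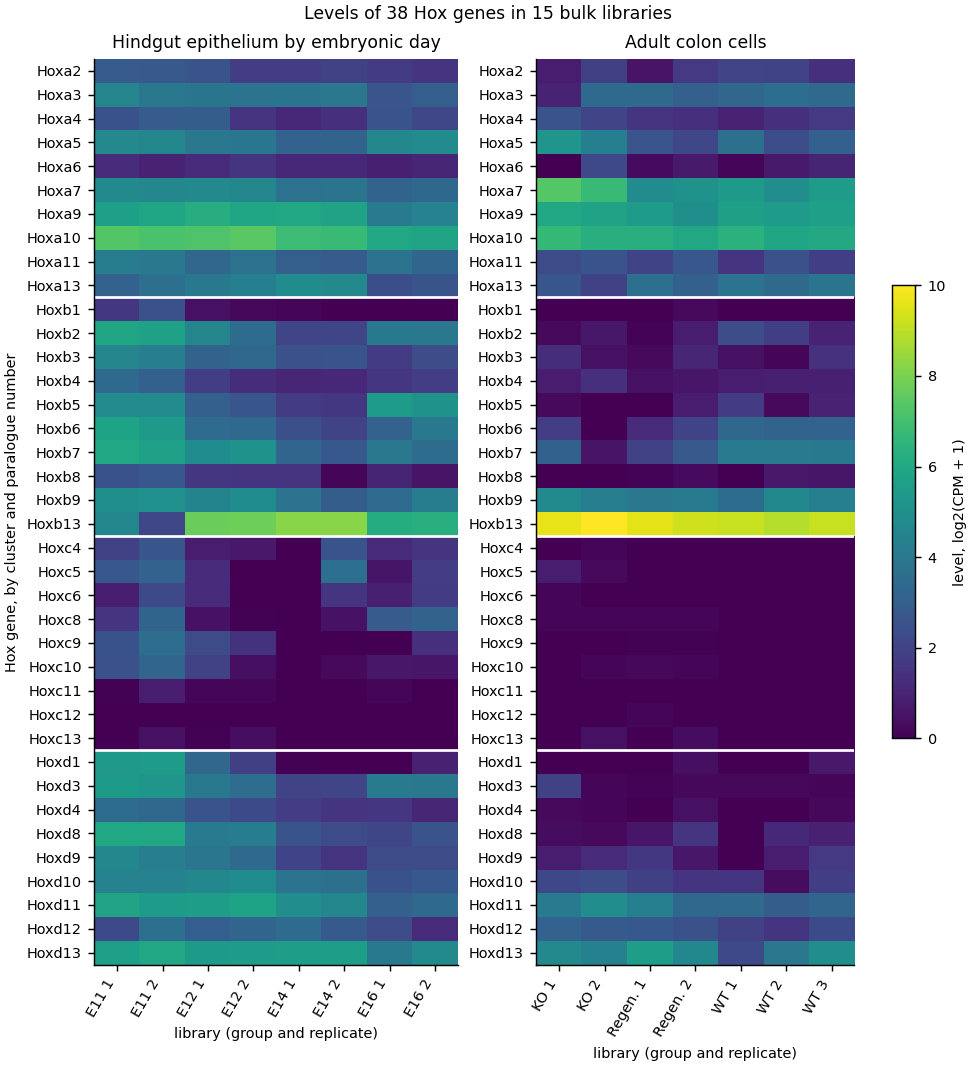
Levels of the 38 Hox genes as log2(CPM + 1) in colour, 1 row per gene by cluster and paralogue number and 1 column per library, with hindgut libraries by embryonic day on the left and Ascl2 knockout, regenerating and wild-type libraries on the right. White lines separate the clusters; Hoxb13 was the brightest row in adult libraries, between 473 and 1085 CPM, and HoxC was at or near 0 there.

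Hox RNA made up less of the libraries at later ages of the hindgut, and the opposite ends of the clusters followed different courses. The summed level of all 38 genes was 948 and 898 CPM in E11 libraries, 819 and 822 in E12, 700.4 and 676 in E14 and 379.8 and 405 in E16. Paralogues 1 to 4 summed to 223 and 203 CPM in E11 libraries, 88.9 and 57.1 in E12, 31.9 and 38.7 in E14 and 51.996 and 53.2 in E16. Paralogues 5 to 8 summed to 272 and 254 CPM in E11 libraries, 109 and 107 in E12, 43.9 and 51.8 in E14 and 111 and 117 in E16. Paralogues 9 to 13 without Hoxb13 summed to 430.5 and 437 CPM in E11 libraries, 412 and 439 in E12, 327 and 289 in E14 and 144 and 157 in E16. The sums of low and middle paralogues were lowest in both E14 libraries, and that of the high paralogues in both E16 libraries.

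**Figure D2:**
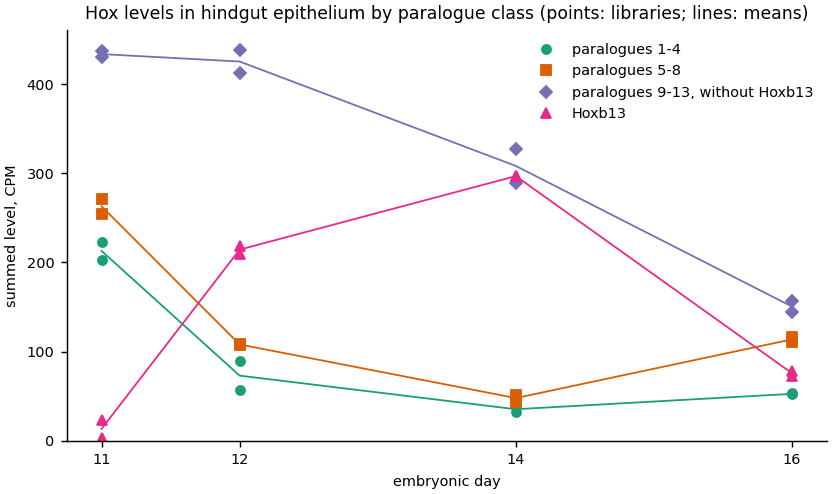
Summed CPM of paralogue classes and of Hoxb13 alone against embryonic day in the hindgut; points are libraries and lines join means of 2. Paralogues 1 to 8 were lowest at E14, where Hoxb13 reached 297 and 296 CPM, its highest value.

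In E16 against E11, 23 of the 35 tested Hox genes were called, 65.7% of them, where 55.7% of all 16481 tested genes were called. Of these, 22 were lower, against 26.2% of all genes called lower, and 1 was higher, against 29.6% of all genes called higher. The median log2 fold change over the 35 genes was -1.54, and over all tested genes 0.05. By cluster, 6 of 10 HoxA, 7 of 10 HoxB, 1 of 6 tested HoxC and 8 of 9 HoxD genes fell. Among these, the call of Hoxa2 was lost in 10 of 14 alternatives and that of Hoxb4 in 3 of 14. An F test for any difference among the 4 ages called 26 of the 35, beside 63% of all genes.

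The largest fitted falls were those of Hoxb1 and Hoxd1, both from the anterior end of their clusters. Hoxb1, which gives identity to a segment of the embryonic hindbrain, was at 0 and 0 CPM in E16 libraries and 2.10 and 4.61 in E11 libraries. With no E16 count against 198 at E11, and a floor of 3 counts over the group, it was at least 33.9-fold lower at E16 (adjusted p = 0.00904, and 0.0568 without E16 replicate 1). Hoxd1, in mice needed for the wiring of pain-sensing neurons, was at 0 and 0.903 CPM at E16, against 40.9 and 43.5 CPM at E11 (log2 fold change -6.62 ± 1.11, adjusted p = 0.00170). Nearly all of that loss lay between E11 and E14, since E12 libraries held 8.78 and 2.68 CPM and E14 libraries 0.0435 and 0 CPM. In E14 against E12 a single Hoxd1 count stood against 319, a ratio of 0.00375 with a 95% counting interval from 9.45e-05 to 0.0210.

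Hoxd8, a middle member that acts in trunk vertebrae, followed the same slope. It was at 63.5 and 62.2 CPM in E11 libraries, 16.4 and 17.4 in E12, 5.09 and 3.98 in E14 and 3.27 and 4.89 in E16, with no overlap of the E11 and E12 libraries with those of any later age (log2 fold change -3.95 ± 0.28, adjusted p = 2.75e-05 for E16 against E11). Hoxd4, used in hindbrain and neck, fell to 1.97 and 1.13 CPM at E16, against 10.5 and 9.12 CPM at E11 (log2 fold change -2.65 ± 0.52, adjusted p = 0.00360). Hoxb3, used in the same regions, fell to 2.46 and 4.21 CPM at E16, against 22.1 and 18.5 CPM at E11 (log2 fold change -2.61 ± 0.38, adjusted p = 8.65e-04). For all 22 genes that fell, the E16 libraries lay below both E11 libraries. These genes were picked by the test on the same libraries, so this adds no further support. The share of all called genes that lie apart in this way was not counted. Among the 12 tested genes that were not called in E16 against E11 were 5 of the 6 HoxC genes, Hoxa4, Hoxa5, Hoxa6, Hoxa11, Hoxb5, Hoxb8 and Hoxd12. Hoxa11 was at 12.999 and 8.65 CPM at E16 and 17.8 and 14.9 at E11. The smallest called falls were those of Hoxa13 (-1.07) and Hoxb9 (-1.18), the call of Hoxb9 being lost without either E11 library or E16 replicate 1.

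Posterior HoxA and HoxD genes fell as well, although none of them was called in E12 against E11. Hoxd11, which with Hoxa11 patterns forearm and kidney, was at 56.8 and 44.8 CPM in E11 libraries, 47.998 and 54.7 in E12, 28.9 and 23.8 in E14 and 7.39 and 9.63 in E16. Its E16 libraries were below all 6 earlier ones (log2 fold change -2.58 ± 0.23, adjusted p = 7.24e-05 for E16 against E11). Hoxd9, a gene of the lumbar region, was at 4.004 and 4.06 CPM at E16 and 23.8 and 18.4 at E11 (log2 fold change -2.39 ± 0.39, adjusted p = 0.00144). Hoxa10, which in mice keeps ribs off the lumbar spine and is used in the uterus, had the highest group mean per kb of genomic span in HoxA (16.6 CPM per kb, where Hoxb13 led HoxB with 129 and Hoxd1 led HoxD). It was at 161 and 139.5 CPM in E11 libraries, 149.8 and 171 in E12, 113 and 107 in E14 and 63.02 and 56.04 in E16. The E11 and E12 libraries overlapped, and each later age lay lower (log2 fold change -0.55 for E14 against E12 and -0.89 for E16 against E14, adjusted p = 0.0146 and 0.00143). The first of these calls was lost without E12 replicate 2 or either E14 library (adjusted p up to 0.130).

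**Figure D3:**
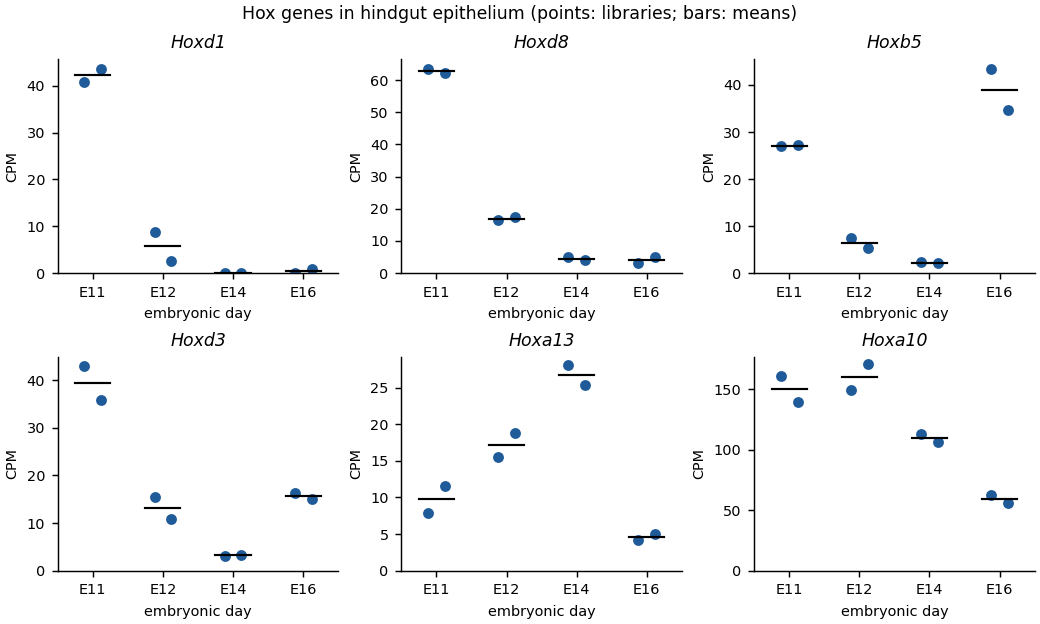
CPM of 6 Hox genes in each hindgut library by embryonic day; points are libraries and bars the mean of 2. Hoxd1 and Hoxd8 stepped down to E14 and stayed low, Hoxb5 and Hoxd3 were lowest at E14 and higher at E16, and Hoxa13 was highest at E14.

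Hoxb13, the last gene of the HoxB cluster and in mice a regulator of tail and prostate, was the 1 gene that rose in E16 against E11. It was at 23.3 and 3.34 CPM in E11 libraries, 209.7 and 219 in E12, 297 and 296 in E14 and 73.1 and 78.2 in E16. The E11 pair differed widely, yet both lay below all later libraries, and each later pair was close. It rose in E12 against E11 (log2 fold change 4.02 ± 0.69, adjusted p = 0.0311) and in E16 against E11 (log2 fold change 2.52 ± 0.66, adjusted p = 0.0132), and fell in E16 against E14 (log2 fold change -1.97 ± 0.62, adjusted p = 0.0388). The E11 pair sets the size of both rises. Without E11 replicate 1 the log2 fold changes were 5.99 for E12 against E11 and 4.50 for E16 against E11, and without E11 replicate 2 they were 3.19 and 1.69. Its share of all Hox counts was 2.46% and 0.372% in E11 libraries, 25.6% and 26.6% in E12, 42.4% and 43.9% in E14, and 19.2% and 19.3% in E16. The calls in E12 against E11 and in E16 against E14 were each lost when any 1 of the 6 libraries of E12, E14 and E16 was left out. Over all alternatives their adjusted p reached 0.115 and 0.165, and the call in E16 against E11 held in all 14.

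Hoxa13, needed for the cloaca and for digits, was at 7.93 and 11.6 CPM in E11 libraries, 15.5 and 18.8 in E12, 28.04 and 25.4 in E14 and 4.25 and 5.04 in E16. The E16 libraries were below every earlier one (log2 fold change -2.52 ± 0.31, adjusted p = 7.55e-04 for E16 against E14); neither E12 against E11 nor E14 against E12 passed the test. Hoxd13, its partner in digits and the terminal gut, was at 49.6 and 62.2 CPM in E11 libraries, 42.2 and 45.7 in E12, 47.3 and 46.6 in E14 and 15.6 and 26.1 in E16, and it too fell in E16 against E14 (log2 fold change -1.18, adjusted p = 0.00786). In E16 against E11 both fell (log2 fold changes -1.07 and -1.43), and the Hoxa13 call was lost without E11 replicate 2, without E16 replicate 1 and with only the groups compared (adjusted p up to 0.101).

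Step by step, 6 of 35 Hox genes were called in E12 against E11 (17.1%), where 2.63% of all genes were called; 5 fell, beside 0.874% of all genes called lower. Hoxb6, a trunk gene, was at 10.3 and 9.62 CPM at E12 and 54.1 and 40.1 at E11 (log2 fold change -2.24 ± 0.37, adjusted p = 0.0259). Hoxb5, known for its role in enteric neural crest, was at 7.36 and 5.33 CPM at E12 and 26.98 and 27.3 at E11 (log2 fold change -2.09 ± 0.26, adjusted p = 0.0119). Hoxb2, a hindbrain gene, Hoxd3 and Hoxd8 fell with log2 fold changes of -1.72, -1.58 and -1.89. The Hoxb2 call was lost in 8 of 14 alternatives and that of Hoxd3 in 6 of 14. Both were lost with only the groups compared, without E12 replicate 2 and without any 1 of the E14 and E16 libraries. The count ranged from 1 to 6 genes when 1 library was left out, 1 without E12 replicate 2, 2 without either E14 library and 3 without E12 replicate 1 or either E16 library. Hoxb6 was not called when any 1 of the E12 and E14 libraries was left out, nor Hoxd8 without either E12 library, nor Hoxb5 with only the groups compared. The count was 2 when only E11 and E12 entered the fit and 13 with DESeq2.

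In E14 against E12, 15 genes were called and all were lower (42.9%), where 28.3% of all genes were called and 13.9% were called lower. Besides Hoxd1, these included Hoxb2 at 3.31 and 3.28 CPM at E14 and 22.6 and 10.5 at E12 (log2 fold change -2.33 ± 0.36, adjusted p = 0.00360). Hoxd9 was at 3.004 and 1.82 CPM at E14 and 14.1 and 9.97 at E12 (log2 fold change -2.31 ± 0.39, adjusted p = 0.00477). Hoxc9, which sets thoracic motor neuron identity, had no count at E14 against 156 at E12, at least 43.5-fold lower (adjusted p = 0.0330). The count was 7 without E14 replicate 1 and 5 without E14 replicate 2, and the call of Hoxd1 was lost without either and that of Hoxc9 when any 1 of the E12 and E14 libraries was left out.

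In E16 against E14, 15 of the 35 tested Hox genes were called, in both directions, a share near the 39.6% of all genes called. Of these, 7 rose, beside 20.6% of all genes called higher, and 8 fell, beside 19% called lower. In each direction the share of Hox genes was near that of all genes. The risers were Hoxa5, Hoxb2, Hoxb5, Hoxb6, Hoxb7, Hoxc8 and Hoxd3, all of paralogues 2 to 8, and the genes that fell were Hoxa3, Hoxa9, Hoxa10, Hoxa13, Hoxb13, Hoxd10, Hoxd11 and Hoxd13, all but 1 of paralogues 9 to 13. The Hoxb7 call was lost in 10 of 14 alternatives, 7 of them leaving out a library (adjusted p up to 0.262), that of Hoxb6 without E14 replicate 2 or E16 replicate 2, and that of Hoxa3 without either E14 library or E16 replicate 1. Hoxb5 reached 43.4 and 34.6 CPM at E16, against 2.31 and 2.07 CPM at E14 (log2 fold change 4.15 ± 0.29, adjusted p = 7.08e-05), above its E11 level of 26.98 and 27.3 CPM. Hoxd3, a gene of the neck vertebrae, was at 16.4 and 15.04 CPM at E16 and 3.18 and 3.28 at E14 (log2 fold change 2.28 ± 0.28, adjusted p = 7.33e-04). Hoxb2 was at 15.3 and 15.2 CPM at E16 and 3.31 and 3.28 at E14 (log2 fold change 2.21 ± 0.36, adjusted p = 0.00275). Hoxa5, the HoxA paralogue of Hoxb5, was at 25.4 and 23.4 CPM in E11 libraries, 14.5 and 14.4 in E12, 7.79 and 8.004 in E14 and 23.5 and 27.1 in E16 (log2 fold change 1.68 for E16 against E14, adjusted p = 0.00109). For all 4 genes the E14 libraries were the lowest. Hoxc8, a gene of brachial motor neurons, was at 6.35 and 8.12 CPM at E16 and 0 and 0.415 at E14 (log2 fold change 5.08 ± 1.54, adjusted p = 0.0337), a call lost without E14 replicate 1 or either E16 library. On the other side Hoxa9, a gene of blood progenitors and the lumbar region, was at 16.9 and 20.7 CPM at E16 and 63.3 and 53.1 at E14 (log2 fold change -1.63 ± 0.20, adjusted p = 7.64e-04), and Hoxd11 fell with a log2 fold change of -1.63 (adjusted p = 0.00123).

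Markers of other cell types moved with these steps. Of all genes, 20.6% were called higher and 19% lower in E16 against E14. In E14 against E12 13.9% were called lower, and in E16 against E11 26.2%. Counts of markers that rose or fell are to be read beside these shares. The summed level of 13 stromal markers was 8301 to 9497 CPM at E16, 657.7 to 664 at E14, 2001 to 2388 at E12 and 1019 to 1310 at E11, and in E16 against E14 11 of the 13 rose. The summed level of 7 immune markers was 1350 to 1464 CPM at E16 (36.0 to 39.6 at E14, 2.74 to 4.48 at E11), that of 8 neural markers 247 to 259 CPM at E16 (10.5 to 11.1 at E14, 159 to 209 at E11), and that of 5 endothelial markers 97.2 to 100.1 CPM at E16 (4.89 to 4.96 at E14). No stromal, neural, immune or endothelial marker was at 0 in an E16 library. The 7 goblet cell markers, which belong to the epithelium itself, summed to 7019.9 to 7744 CPM at E16 and 43.1 to 43.3 at E14, and 6 of them rose. Erythroid markers, 5 in all, summed to 1441 to 1524 CPM at E16 and 1.82 to 1.92 at E14, with 4 of them at 0 in each of these libraries. Cycling markers, 7 in all, summed to 869.7 to 899 CPM at E16 and 1720.0 to 1735 at E14, and all 7 fell. Germ cell markers, 5 in all, summed to 2.86 to 3.92 CPM at E14 and 38.9 to 329 at E12, and 4 of them fell. The 7 nephric duct markers summed to 418 to 494 CPM in E11 libraries, 108 to 117 in E12, 37.99 to 40.2 in E14 and 21.1 to 22.8 in E16, and all 7 fell in E16 against E11. The part of these cells in the Hox differences was not tested, and fewer cells of a type and less RNA per cell cannot be told apart in bulk libraries. E16 libraries also had 3.09% and 3.5% ambiguous reads, against 0.812% to 0.866% at the other ages.

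HoxC genes were low and uneven. Hoxc5, the HoxC gene with the highest level per kb of genomic span, was at 5.64 and 7.89 CPM in E11 libraries, 1.38 and 0 in E12, 0 and 11.5 in E14 and 0.493 and 2.56 in E16, with 1 library at 0 at both E12 and E14. The first E14 library held no count of any of the 9 HoxC genes, while in the second Hoxc5 was above every other hindgut library. Hoxc10, a gene of lumbar motor neurons, was at 0.554 and 0.527 CPM at E16 and 4.62 and 8.70 at E11 (log2 fold change -3.61 ± 1.33, adjusted p = 0.0490), a call lost in 5 of 14 alternatives, leaving out E11 replicate 2 or either E16 library among them.

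The genes around the Hox clusters in the same pathway were read from fixed lists. As set out above, 26.2% of all genes were called lower and 29.6% higher in this comparison, and list counts are to be read beside those shares. Of 9 cofactors tested in E16 against E11, 4 fell and 1 rose. Pbx4, Pbx2 and Meis3 were among those that fell, with log2 fold changes of -3.47, -1.59 and -0.85, while Pknox1 rose (1.00). Of 11 upstream and axial regulators tested, 5 fell and 2 rose. Cdx1, an intestinal activator of Hox genes, was at 518 and 451 CPM at E16 and 17.996 and 24.5 at E11 (log2 fold change 4.51 ± 0.26, adjusted p = 1.19e-05). The retinoic acid genes Cyp26a1, Aldh1a3 and Cyp26b1, 2 degrading enzymes and 1 making enzyme, fell with log2 fold changes of -6.48, -4.44 and -3.52, the receptor gene Rarb fell and Rarg rose (-2.82 and 0.80), and the signal gene Gdf11 fell (-1.79). Of 18 chromatin regulators 8 fell and 4 rose, among them the Polycomb genes Cbx2 (-2.16), Pcgf2 (-1.82) and Ezh2 (-1.39) on the lower side with Cbx7 (-1.20), and with Ezh1 (1.33), Ring1 (0.62) and Suz12 (0.37) on the higher. Among 16 genes flanking the clusters 7 fell and 3 rose (Ttll6 1.88, Smug1 0.81 and Hibadh 0.27). The largest falls were those of Evx1, Hnrnpa3 (-1.68), Mtx2 (-1.55) and Snx10 (-1.38). Evx1, a homeobox gene next to the 5' end of HoxA, was at 2.28 and 3.08 CPM at E16 and 8.08 and 18.1 at E11 (log2 fold change -2.29 ± 0.47, adjusted p = 0.00455). Of 4 cluster non-coding RNAs tested, 2 fell, Hoxa11os (-1.36) and Hoxd3os1. Hoxa11os is antisense to Hoxa11, and since the strand setting of the counts is not given in the sources used here, reads of the pair cannot be told apart.

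In adult colon cells, knockout of Ascl2, a stem cell transcription factor, was compared with wild type to ask how its loss changes stem cells. In all adult groups Hoxb13 took most Hox counts, 62.8% and 74.7% in knockout, 73.4% and 73.0% in regenerating and 65.8% to 67.7% in wild-type libraries. Hoxb1, Hoxb8, Hoxd1, Hoxd4 and all HoxC genes were below 1 CPM in each adult library. Per kb of genomic span, the highest group mean was that of Hoxb13 in HoxB (411 CPM per kb), of Hoxa7 in HoxA (45.7), of Hoxd13 in HoxD (10.7) and of Hoxc5 in HoxC (0.133).

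In Ascl2 knockout against wild-type cells, 5 of the 25 tested Hox genes were called (20%), where 36.2% of all 13911 tested genes were called; 4 were higher, beside 18.8% of all genes. The share of Hox genes called is thus below that of all genes. Hoxa7, a trunk gene, was at 165 and 105 CPM in knockout, 27.1 and 34.5 in regenerating and 40.4, 28.8 and 43.96 in wild-type libraries, and the knockout libraries stood apart from all others (log2 fold change 1.84 ± 0.28, adjusted p = 0.00116 against wild type). Hoxa5, which in mice acts in lung and gut mesenchyme, was at 36.5 and 18.96 CPM in knockout, 5.14 and 3.38 in regenerating and 11.97, 4.18 and 7.47 in wild-type libraries (log2 fold change 1.82 ± 0.52, adjusted p = 0.0230 against wild type). Hoxa6, which lies between them, was at 0 and 3.57 CPM in knockout and 0.117, 0.643 and 1.07 in wild-type libraries and was not called. Without knockout replicate 1 or wild-type replicate 3 the Hoxa5 call was lost, while Hoxa7 was called in all 13 alternatives.

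Among posterior genes, Hoxd11 was at 16.03 and 29.3 CPM in knockout, 18.95 and 9.40 in regenerating and 10.1, 6.72 and 8.54 in wild-type libraries (log2 fold change 1.42 ± 0.44, adjusted p = 0.0318 against wild type). Hoxb13 was at 802 and 1085 CPM in knockout, 774 and 617 in regenerating and 576, 473 and 573 in wild-type libraries (log2 fold change 0.80 ± 0.22, adjusted p = 0.0209 against wild type). Hoxa13 was the only called gene that was lower, at 5.43 and 2.93 CPM in knockout, 11.7 and 7.40 in regenerating and 12.9, 9.90 and 13.2 in wild-type libraries (log2 fold change -1.52 ± 0.50, adjusted p = 0.0407 against wild type). For all 5 genes the knockout libraries lay outside the wild-type range, and for Hoxd11 they overlapped the regenerating ones. The 5 genes were picked by the test on these libraries, and the share of all called genes that lie apart was not counted. Without knockout replicate 2 neither Hoxd11, Hoxb13 nor Hoxa13 was called, without wild-type replicate 3 neither Hoxd11 nor Hoxa13 was called, and Hoxa13 was lost in 7 of 13 alternatives. Library size scaling lowered the median log2 fold change of all genes by 0.98 relative to TMM and gave 1233 genes called higher and 5328 lower, where TMM gave 2618 higher and 2421 lower. Under it Hoxb13 was at -0.17 and Hoxa5, Hoxb13 and Hoxd11 were not called. Directions in knockout cells are therefore given relative to all genes, and rises smaller than this shift turn round under library size scaling, that of Hoxb13 among them.

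**Figure D4:**
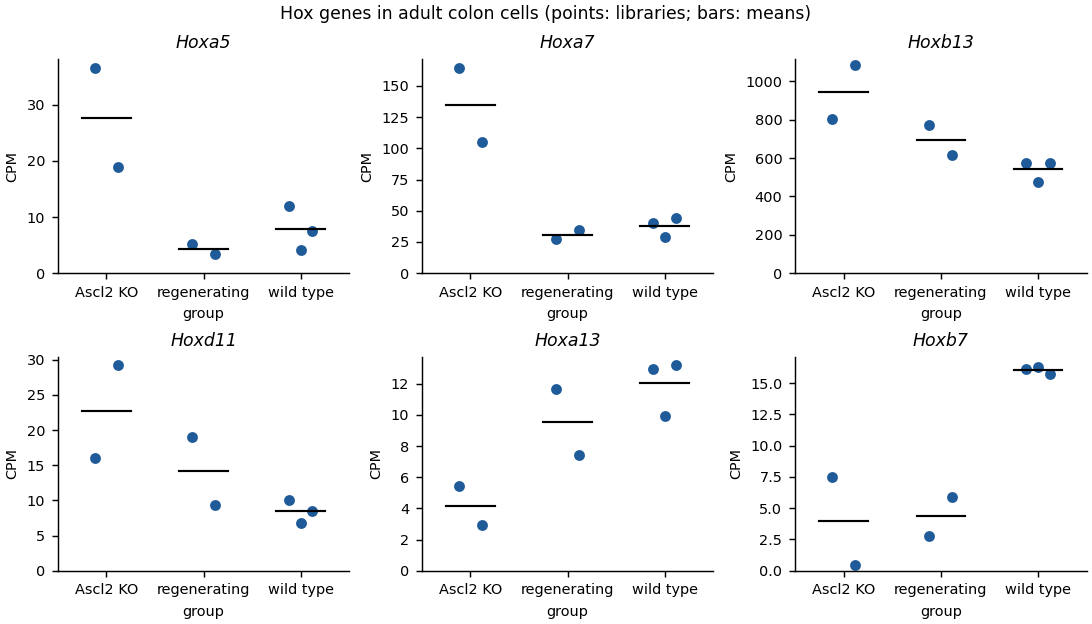
CPM of 6 Hox genes in each adult library for Ascl2 knockout, regenerating and wild-type cells; points are libraries and bars group means. Hoxa7 and Hoxa5 were above all other libraries in both knockout libraries, and Hoxb7 was at 15.7 to 16.3 CPM in wild type, above the other 4 libraries, without passing the test.

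Hoxb6 and Hoxb7, neighbours in the middle of HoxB, were picked after their values were seen because wild-type libraries stood apart. Hoxb7 was at 7.52 and 0.458 CPM in knockout, 2.81 and 5.92 in regenerating and 16.1, 16.3 and 15.7 in wild-type libraries (adjusted p = 0.117 and 0.524 against wild type). Hoxb6 was at 2.54 and 0 CPM in knockout, 1.26 and 3.06 in regenerating and 9.13, 8.09 and 7.88 in wild-type libraries (adjusted p = 0.124 and 0.680). Neither gene had a knockout or regenerating library within the wild-type range, and no comparison passed the test. How many of all genes lie apart in this way was not counted. Both were called lower in knockout than wild type with DESeq2, with library size scaling and without knockout replicate 1, which held more of both than replicate 2.

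The other 20 tested genes were not called in knockout against wild-type cells. Hoxa9, next to Hoxa7, was at 61.7 and 53.5 CPM in knockout, 44.2 and 30.2 in regenerating and 50.01, 43.97 and 48.6 in wild-type libraries (log2 fold change 0.28, adjusted p = 0.414). Hoxa10 was at 99.5 and 78.8 CPM in knockout, 78.02 and 63.2 in regenerating and 82.1, 58.7 and 65.3 in wild-type libraries (log2 fold change 0.38, adjusted p = 0.247). Hoxd12, a digit gene, was at 7.88 and 6.04 CPM in knockout, 5.68 and 4.54 in regenerating and 2.88, 1.84 and 3.74 in wild-type libraries (log2 fold change 1.30, adjusted p = 0.117). Of these 3, only the Hoxa10 libraries of knockout and wild type overlapped. The share of all genes whose libraries lie apart was not counted, so no result is drawn from this. Hoxb9 was at 26.9 and 18.4 CPM in knockout and 10.5, 24.6 and 18.9 in wild-type libraries, which overlapped.

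In regenerating against wild-type cells 0 of 25 tested Hox genes were called by edgeR's quasi-likelihood test, none had an unadjusted p below 0.05 and DESeq2 called 0 as well, where 0.331% of all genes were called. Hoxd13, the HoxD gene with the highest adult level per kb of genomic span, was at 48.3 and 24.3 CPM in regenerating and 3.64, 14.6 and 28.7 in wild-type libraries, which overlapped (log2 fold change 1.22 ± 0.67, adjusted p = 0.624). The wild-type libraries spread more widely than the group means differed. In knockout against regenerating cells 2 genes were called (8%), where 31.4% of all genes were called; both were higher, beside 15.4% of all genes called higher. They were Hoxa7 (log2 fold change 2.13 ± 0.32, adjusted p = 0.00143) and Hoxa5 (log2 fold change 2.70 ± 0.61, adjusted p = 0.00941). The Hoxa5 call was lost without regenerating replicate 2 or knockout replicate 1 (adjusted p up to 0.0874). The comparisons share libraries, so their values are set side by side and not counted as separate evidence.

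Of the lists around the clusters, 3 of 7 upstream regulators tested fell in knockout against wild-type cells, where 17.4% of all genes were called lower and 18.8% higher, the shares beside which each count in this paragraph is to be read. Cdx1 was at 526 and 524 CPM in knockout, 1069.6 and 1278 in regenerating and 1381, 1486 and 1251 in wild-type libraries (log2 fold change -1.39 ± 0.21, adjusted p = 0.00107 against wild type). Cdx2, the intestinal master regulator of the same family, was at 20.3 and 6.96 CPM in knockout and 68.9, 59.98 and 54.9 in wild-type libraries (log2 fold change -2.17 ± 0.43, adjusted p = 0.00431), and Rara fell as well (-1.34). Of 7 cofactors tested 1 rose and 1 fell, and the gene that fell was Pknox1 (-1.27). Of 18 chromatin regulators 2 rose, the histone demethylase gene Kdm6b (2.44) and Ctcf (0.64), and 3 fell, Cbx2 (-2.30), Men1 (-2.20) and Rnf2 (-1.37). Among 15 tested flanking genes Hnrnpa1 (1.86) and Ttll6 (1.42) rose, and Smug1 (-3.74) and Hibadh (-0.85) fell. Of 3 tested non-coding RNAs 2 rose. The Mir196b hairpin row was at 13.8 and 16.4 CPM in knockout, 4.90 and 3.93 in regenerating and 4.58, 2.78 and 3.77 in wild-type libraries (log2 fold change 2.02 ± 0.48, adjusted p = 0.0101 against wild type), and Hoxa11os at 137 and 109.5 CPM in knockout, 65.9 and 75.3 in regenerating and 56.2, 49.5 and 53.3 in wild-type libraries (log2 fold change 1.22 ± 0.20, adjusted p = 0.00184).

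Knockout libraries differed from the others in more than Ascl2. The counts of called markers given here are to be read beside 18.8% of all genes called higher and 17.4% called lower in knockout against wild type. Stromal markers summed to 148 to 230.0 CPM in knockout, 17.9 to 18.4 in regenerating and 7.04 to 14.5 in wild-type libraries, with 6 of 10 tested higher in knockout than wild type, and 7 immune markers to 123 to 322 CPM in knockout, 8.44 to 31.1 in regenerating and 1.58 to 33.8 in wild-type libraries. Among epithelial types, 7 goblet cell markers summed to 36702 to 46867 CPM in knockout, 18138 to 31713 in regenerating and 2453 to 7319 in wild-type libraries, with 4 of 7 higher in knockout than wild type. Enteroendocrine markers, 5 in all, summed to 1725 to 2263 CPM in knockout, 34.5 to 59.4 in regenerating and 73.6 to 174 in wild-type libraries, and 2 of 5 were higher in knockout than wild type. Absorptive colonocyte markers, 8 in all, summed to 18115 to 24517 CPM in knockout, 1235 to 5493 in regenerating and 2020.4 to 13836 in wild-type libraries, and 2 of 8 were higher. Tuft cell markers, 4 in all, summed to 3.94 to 5.25 CPM in knockout, 3.74 to 3.799 in regenerating and 26.6 to 48.4 in wild-type libraries, and 2 of 4 were lower. Stem cell markers, 6 in all, summed to 187 to 212 CPM in knockout, 330.1 to 359 in regenerating and 536 to 779.6 in wild-type libraries, and 5 of 6 were lower in knockout than wild type. Of the 13 stromal markers, 1 or 2 were at 0 in the knockout libraries and 7 to 9 in the wild-type ones. Multi-mapped reads made up 51.2% and 51.4% of all reads in knockout libraries and 36.4% to 40.2% in the other adult ones. The part of these differences in the Hox changes was not tested.

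In the day 8 single-cell library, Hox RNA was again mostly of posterior genes. Of 6794880 barcodes, 3398 had at least 1000 UMIs and under 20% mitochondrial UMIs and were kept as cells, with a median of 20638 UMIs. Free RNA was read from 71505 droplets with at least 10 and under 100 UMIs. Levels here are CPM of UMIs, without TMM factors. With 1 library there is no test, and intervals are exact Poisson intervals that cover counting error only. The 38 genes held 44781 UMIs, 549 CPM, and Hoxb13 held 49.7% of them. Since 3' UMIs do not scale with transcript length, genes were set side by side. Capture can still differ between genes, and the spans of some overlap, that of Hoxd4 lying within that of Hoxd3. Hoxb13 was at 273 CPM, followed by Hoxa9 (47.6), Hoxd13 (43.2), Hoxa7 (40.7), Hoxd11 (31.5), Hoxa10 (31.1), Hoxa13 (24.2) and Hoxb9 (23.9). Hoxa5, Hoxa3, Hoxd10 and Hoxd12 lay between 4.33 and 10.4. Hoxa2, Hoxb3 to Hoxb8 and Hoxd8 had 3 to 53 UMIs each. Of the rest, 14 genes had no UMI, where the floor of 3 UMIs over all cells corresponds to 0.0368 CPM: Hoxb1, Hoxb2, Hoxd1, Hoxd3, Hoxd4 and all 9 HoxC genes. In the free-RNA droplets Hoxb13 was at 251 and Hoxd13 at 53.1 CPM, beside 273 and 43.2 in cells.

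Hox genes were left out of the genes used for clustering, which gave 12 clusters. Cluster 0, 169 cells led by Reg3b, Reg3g, Fabp2, Cyp2c55 and Car1 and left without a cell type name, had the lowest Hoxb13 and Hoxd13 levels of the 12. There Hoxb13 was at 92.3 (95% interval 83.7 to 102) CPM, and in the other 11 clusters it ranged from 229 to 423. Hoxd13 was at 1.99 (95% interval 0.909 to 3.77) and Hoxd11 at 2.65 (95% interval 1.37 to 4.63) in cluster 0, where the free-RNA levels were 53.1 and 23.04. Summed over Hoxd9 to Hoxd13, cluster 0 held 4.86 (95% interval 3.05 to 7.36) CPM. Clusters 6 and 11 held 19.7 and 23.3, and the other 9 clusters between 67.7 and 152. The value of 152 was that of cluster 3, 61 cells with a median of only 2321 UMIs. Pyy, Ccl5, Chgb and Gzma led cluster 3, and the immune markers summed to 392 CPM there.

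The posterior HoxA genes were not low in cluster 0. Hoxa9 to Hoxa13 summed to 135 (95% interval 124 to 146) CPM in cluster 0, and between 33.3 and 164 in the others, the highest again in cluster 3. Hoxa13 itself was at 35.8 in cluster 0 and 24.2 over all cells. Cluster 0 also held 52 of the 71 UMIs of Hoxb1 to Hoxb8 (73.2%, exact 95% binomial interval 61.4% to 83.1%), with 5.55% of the UMIs of all genes. They came from 28 cells, with at most 6 in a cell, and Hoxb7 gave 23 of them. As a level this is 11.5 (95% interval 8.58 to 15.1) in cluster 0, 0.406 at most in any other cluster, and 3.16 in the free-RNA droplets. The small cluster 11 held no such UMI, but its upper limit of 12.3 overlaps the interval of cluster 0.

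**Figure D5:**
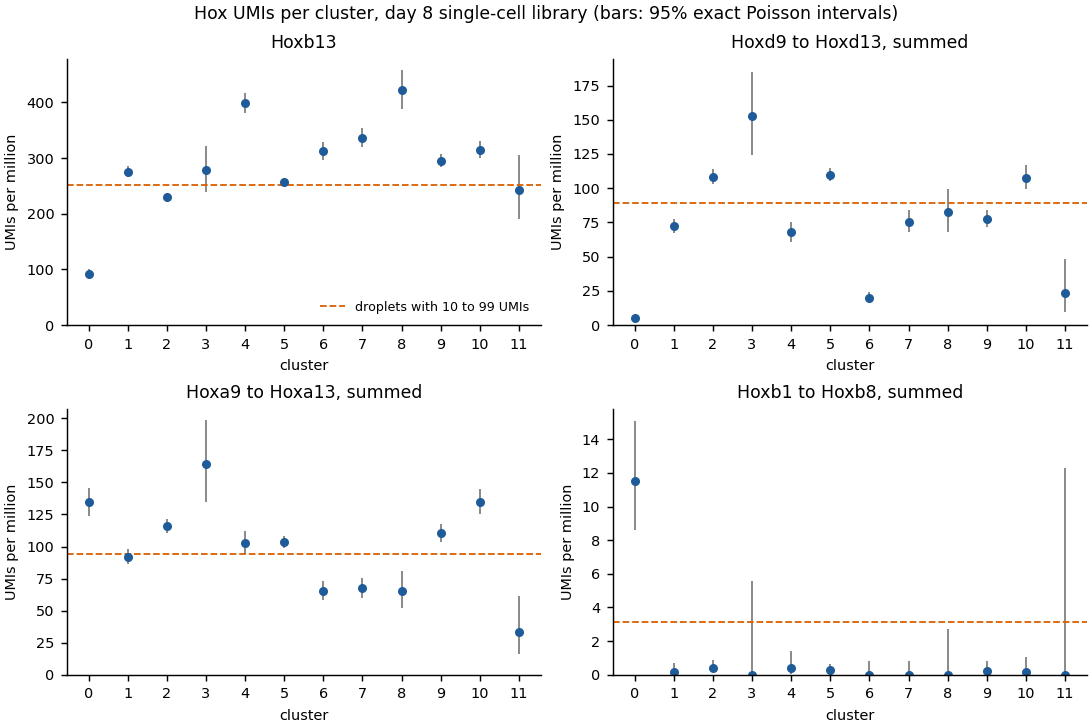
Levels (CPM of UMIs) of Hoxb13 and of 3 groups of Hox genes in each of 12 clusters of day 8 cells, with exact 95% Poisson intervals; the dashed line is the level in droplets with at least 10 and under 100 UMIs. Cluster 0 was lowest for Hoxb13 and for Hoxd9 to Hoxd13, highest for Hoxb1 to Hoxb8, and not low for Hoxa9 to Hoxa13. For Hoxb1 to Hoxb8 its interval overlapped that of cluster 11.

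Cluster 6, 353 cells led by Nov, Retnlb and Muc2 with markers of both goblet and deep crypt secretory cells among its leading genes, kept Hoxb13 at 312 CPM with Hoxd13 at 11.5 (95% interval 8.67 to 15.1). Cluster 7, 391 deep crypt secretory-like cells led by Cma1, Ccl6 and Reg4, had Hoxb13 at 336 and Hoxd13 at 36.1 (95% interval 30.8 to 42.02). Cluster 8, 61 absorptive colonocyte-like cells led by Saa1, Car4, Aqp8 and Slc26a3, had the highest Hoxb13 level, 423 (95% interval 389 to 459). That interval overlapped the one of cluster 4 (398, 381 to 416). Its Hoxa3 level was the lowest, 0.743 from 1 UMI (95% interval 0.0188 to 4.14), with an interval that overlapped those of clusters 4, 10 and 11. Clusters 2 and 10, proliferating and led by histone and mitotic genes, were close to each other in Hoxd13 (57.99 and 54.7) and in Hoxa9 (56.6 and 61.4). Mitotic genes also stood among the leading genes of cluster 9. There Hoxd13 was at 43.4 (95% interval 39.1 to 47.95), below the intervals of both, and Hoxa9 was at 54.4. Median UMIs per cell were 20727 in cluster 0 and 13171, 11468 and 21086 in clusters 6, 7 and 8. Doublets were not removed. Scrublet with its automatic threshold marked 0 of the 3398 cells, which does not show that doublets were absent.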

How the data were processed

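For bulk RNA the authors deposited one table of whole read counts by gene symbol, and the submitters' processing notes name STAR 2.5.3a, HTSeq and the builds GRCm38 and mm10; the strand setting is not given in the sources used here. For single cells they deposited an unfiltered matrix of UMI counts, written by Cell Ranger 3.0.2 according to its header. Both entered as deposited.

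Adult and hindgut libraries were fitted apart, since strain, kit and sort differ: 7 and 8 libraries, filterByExpr by group, TMM scaling, edgeR 4.0.16 quasi-likelihood F tests in R 4.3.3, two-sided, group as the term, Benjamini-Hochberg adjustment over all genes tested and a threshold of 0.05. Errors of log2 fold changes are standard errors. Alternatives were library size and RLE scaling, no low count filter, DESeq2 1.42.0, fits on only the groups compared, a replicate block and leaving out each library. A fold against a group without counts was taken against 3 counts summed over that group; intervals and this floor cover counting error only. Full statistics were given to the largest called changes reaching a mean of 1 CPM, up to 8 each way in E16 against E11 and knockout against wild type and up to 4 each way otherwise, and values to the gene of each cluster with the highest CPM per kb of genomic span. Members and lists were chosen with earlier results of these data known.

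Cells were clustered with scanpy 1.11.5 (2000 variable genes without Hox and mitochondrial genes, 30 principal components, Leiden resolution 0.6). The ChIP-seq samples were not analysed here, and the values of 2 genes of the fixed lists are not reported here.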

Additional observations from a re-analysis of the deposited data

Results flagged for a closer look

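The changes of 2 genes in Ascl2 knockout cells differed from those in regenerating cells by a direct test of knockout against regenerating libraries in edgeR's quasi-likelihood test. For Hoxa5 the difference was 2.70 on the log2 scale, higher in knockout cells (adjusted p = 0.00941; the call was lost without regenerating replicate 2 or knockout replicate 1), and for Hoxa7 it was 2.13 (adjusted p = 0.00143). Both knockout libraries lay above both regenerating ones for each gene, which adds no further support, since the test on these libraries picked the genes. Groups of 2 or 3 libraries are too small to look for a library far from the others.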

How the results depend on the processing

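Of 108 recomputed counts of called Hox genes, 94 stayed within 1.5 times the count given above. In Ascl2 knockout against wild type, 5 genes were called, 3 with the replicate number as a block, and 2 to 6 when 1 library was left out (2 without wild-type replicate 3, 3 without knockout replicate 2). In knockout against regenerating the count was 1 to 3, with 1 when regenerating replicate 2 was left out. In E12 against E11 the count of 6 was 13 with DESeq2, 2 with only the groups compared and 1 to 6 when 1 library was left out, 1 without E12 replicate 2. In E14 against E12 the count of 15 was 5 to 16, with 5 and 7 when E14 replicate 2 or replicate 1 was left out. The cause was not tested. With a library left out, the lone library of a group is assumed to vary like the others. The count was 17 to 23 in E16 against E11, 11 to 16 in E16 against E14, 23 to 27 for any difference among ages and 0 in regenerating against wild type. Same-numbered libraries deviated from their group means with correlations of -0.0295 to 0.107. In groups of 2 libraries the deviations mirror each other, so these values cannot show whether the numbers pair libraries. The labels state no pairing. The block left 21, 5, 14, 14 and 26 genes called in the hindgut comparisons, in place of 23, 6, 15, 15 and 26, and 2 in knockout against regenerating.

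Of 982 recomputed fold changes of named genes, 848 kept direction and side of the threshold, 127 lost and 6 gained the call, and 1 turned. The 848 include any that kept direction but had no adjusted p, which DESeq2 leaves out for some genes. The 1 that turned was Hoxb13 in knockout against wild type, at -0.17 under library size scaling. In single cells, a minimum of 2000 UMIs or a mitochondrial limit of 10% moved none of the 9 Hox levels beyond its counting interval.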
